A study of Mus musculus with 4 samples.

Results

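Resting follicular-like B cells were the B cells with IgD and CD23 transcripts and little or no Cd83 transcript. They were selected on their own measured values: a barcode counted as a cell from 500 UMIs (unique molecular identifiers, each counting 1 captured RNA molecule) and 250 genes upwards, with mitochondrial UMIs up to 10%, and such a cell was a member with at least 3 UMIs of Cd79a and Cd79b together, 0 of Cd3e, 0 of Csf3r, at least 2 of Ighd and Fcer2a together and at most 1 of Cd83. The rule was met by 4611 of the 32876 kept cells of the 4 libraries (14.0%), of which 802 came from the GS library, 1320 from the URI library, 1380 from WT replicate 1 and 1109 from WT replicate 2. They made up 75.3% of the 6120 cells that passed the B cell conditions of the rule (Cd79a and Cd79b, without Cd3e and Csf3r). Of the other B cells, 293, 397, 212 and 334 in the same library order had at least 2 Cd83 UMIs and are called Cd83-high B cells here, and 30, 69, 45 and 129 had too few Ighd and Fcer2a UMIs.

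The study sorted CD45+ immune cells from mouse livers and profiled them one by one with a fixed-RNA probe kit. The groups were GS(+/delta)Hep (1 library), which the series title and labels give as a heterozygous hepatocyte deletion of glutamine synthetase, URI(+/delta)Hep (1 library), the same kind of deletion of URI, and WT (2 libraries). Every group, WT included, had 1 week of tamoxifen, and each library pooled cells of 5 mice, so differences between mice of 1 pool were not measured. The labels name neither the Cre driver nor the age, sex or strain of the mice, and the deletion was made in hepatocytes, not in the sorted cells.

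Mature B cells that circulate between blood, spleen, lymph nodes and tissues such as the liver sinusoids are mostly follicular B cells. They carry IgM and IgD on the surface, made by alternative splicing of the same heavy chain transcript, together with the low-affinity IgE receptor CD23 (Fcer2a) and the IgM receptor Fcmr. Until antigen engages the receptor they do not divide; engagement induces immediate early genes, NF-kB targets and Cd83, and B cells present captured antigen to CD4 T cells on MHC class II.

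Depth differed between libraries before any biology was read. Members had median totals of 3625 UMIs in the GS library and 4212.5 in the URI library, against 2797.5 and 2164 in WT replicates 1 and 2, and summed totals of 2942948, 5566858, 4120082 and 2624379 UMIs. WT replicate 2 stood apart: among 7376 genes of at least 20 CPM (a gene's UMIs scaled to one standard total over the members of a library, the usual CPM unit), 429 (5.82%) were over 2-fold apart between the WT replicates, 213 between GS and WT replicate 2 and 122 between URI and WT replicate 2, but 27 between GS and URI, 25 between GS and WT replicate 1 and 52 between URI and WT replicate 1. No full barcode was shared between libraries, and pairs shared 1480 to 2076 of the droplet barcodes without the probe tag. Scrublet scored 1.62% to 2.71% of members as doublets. The kit counts ligated probes, so levels are compared between libraries and cell classes, never between genes.

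The label was checked against its 5 markers. Ighd (ENSMUSG00000104213, mm10 chromosome 12, 113406604 to 113416324, minus strand), the IgD heavy chain gene, was at 3953 CPM in GS members and 3321 in URI members, against 4171 and 1978 in WT members, and at 299, 320.4, 291 and 218 CPM in all other kept cells of the same libraries. Fcer2a (chromosome 8, 3681737 to 3694175), which encodes CD23, was at 1056 and 919.8 CPM, against 1269.8 and 814 in WT. Both genes belong to the rule, so their height is no finding. The rule did not use the other markers. The IgM receptor Fcmr was at 847 and 843 CPM in GS and URI members, against 933 and 543 in WT members, while other cells held 71.5, 92.6, 70.8 and 64.3. Ms4a1, which encodes the B cell surface protein CD20, was at 792 and 646 CPM, against 955 and 446 in WT. Ly6d, a surface protein of the B lineage, was at 1108 and 961 CPM, against 1116 and 635 in WT. In each case WT replicate 2 was the lowest library, and every library's members lay above its other cells, which include the B cells that are not members.

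Shares of cells with a UMI gave the same picture when set beside those of T cells. Ms4a1 had a UMI in 86.8% of GS members and 82.0% of URI members, against 85.7% and 59.7% of WT members. In T cells (at least 2 Cd3e UMIs and no Cd79a or Cd79b), which should lack it, the share was 0.956% to 1.72%. T cells with a Cd79a or Cd79b UMI were left out, so T cell shares may understate foreign B cell RNA. T cells were deeper, with medians of 5330, 6210, 4725.5 and 3647 UMIs. Thinned to 1500 UMIs a cell, the Ms4a1 shares were 64.6%, 58.1%, 70.9% and 45.8% of members. Ighm had a UMI in 79.9%, 84.0%, 83.2% and 74.8% of T cells, and Igkc in 18.2%, 19.3%, 13.3% and 15.4%. A single UMI of either is therefore not read as B cell expression. The source of these UMIs in T cells was not tested.

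Cd83-high B cells carried the markers at the same order of level. In that class Fcmr was at 847 and 897 CPM in the GS and URI libraries, against 957 and 474 in WT, and Ms4a1 at 756 and 707 CPM, against 878 and 468. In B cells low in Ighd and Fcer2a, Jchain, the chain that joins secreted IgA and IgM units, was at 8566 and 2146 CPM, against 16150.3 and 4576 in WT, and in members at 4.76 and 2.52, against 107 and 6.86.

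**Figure D1:**
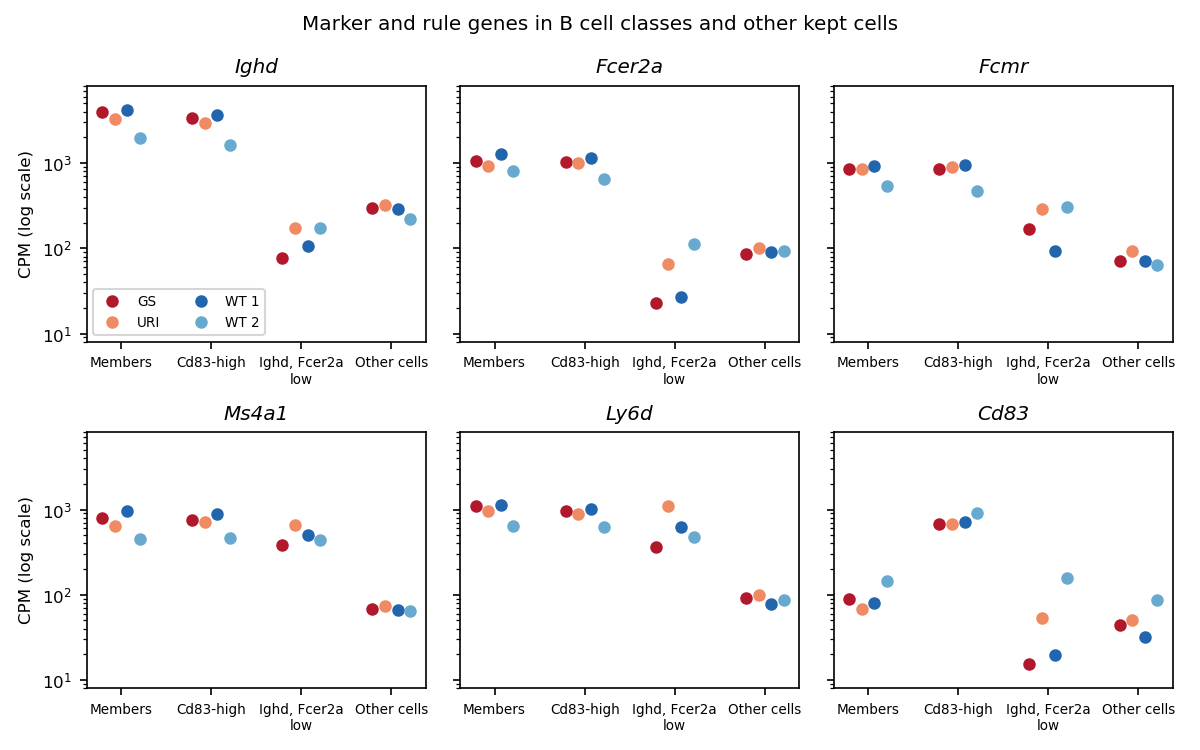
Level of the 5 markers and of Cd83 (CPM, log scale) in resting follicular-like B cells, Cd83-high B cells, B cells low in Ighd and Fcer2a and all other kept cells, 1 point per library (GS, URI, WT 1 and WT 2). Other kept cells are all kept cells that are not members, so they include the other B cell classes. Members and Cd83-high cells share the upper range for Ighd, Fcer2a, Fcmr, Ms4a1 and Ly6d, and other kept cells lie lowest for Fcmr, Ms4a1 and Ly6d in every library.

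The limits of the rule were looked at from both sides. Cells with exactly 2 UMIs of Ighd and Fcer2a, just inside, numbered 13 (GS), 38 (URI), 29 (WT replicate 1) and 114 (WT replicate 2), and cells with 1 UMI, just outside, 13, 40, 20 and 86. At the Cd83 limit, 263, 382, 326 and 377 members had 1 UMI, and 121, 168, 129 and 180 cells just outside had 2. With 3 UMIs of Cd79a and Cd79b there were 9, 48, 28 and 117 members, and just outside 9, 40, 28 and 84 cells. The Cd3e condition alone left out 163, 237, 276 and 99 cells, and the Csf3r condition alone 60, 103, 77 and 101. Member shares therefore also depend on these 2 conditions, which fell unevenly on the libraries. Median Ighd and Fcer2a UMIs per member were 17 and 16 in the GS and URI libraries, against 14 and 6 in WT, and 85.5%, 85.8%, 86.3% and 73.6% of members had both transcripts.

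The first comparison was the share of members among the kept cells of each library, which is not a number of cells per liver. Members were 10.2% of kept GS cells (exact 95% interval 9.56% to 10.9%, counting error only) and 14.5% of kept URI cells (13.8% to 15.3%). In the WT replicates they were 16.3% (15.5% to 17.1%) and 14.9% (14.1% to 15.7%). The GS library was the lowest, below both WT libraries, and the URI library lay just under WT replicate 2, within its interval. The GS share was 0.656 of the WT mean (0.628 of WT replicate 1 and 0.687 of WT replicate 2), and the URI share 0.932 (0.892 and 0.975). An exact permutation test of 1 library against 2 cannot give a p below 0.333, so none was used. Thinning to an equal depth of 1500 UMIs a cell also left out every shallower cell (35 members in GS and 51 in URI, against 192 and 126 in WT). The rule was applied after thinning, so cells could enter or leave. Of 921 (GS) and 1470 (URI) thinned members, against 1318 and 948 in WT, 701 and 1124, against 1123 and 813, were members on raw UMIs. Member values at 1500 UMIs a cell, here and elsewhere, are those of the thinned members. Thinned shares were 13.7% (GS) and 18.9% (URI), against 18.4% and 15.2% (WT). GS stayed lowest at 0.816 of the WT mean, while URI, at 1.12 of it, was then the highest library.

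Within B cells the picture differed. Members were 71.3% of GS and 73.9% of URI B cells, against 84.3% and 70.5% of WT B cells, and GS and URI lay between the WT replicates. At equal depth the shares were 85.2% and 86.2%, against 89.9% and 73.9%. All B cells together were 14.3% of kept GS cells and 19.6% of kept URI cells, against 19.3% and 21.1% of kept WT cells, so that the GS library was low in B cells as a whole. Cd83-high B cells were 26.0% and 22.2% of GS and URI B cells, against 13.0% and 21.2% of WT B cells, and 8.88% and 6.80%, against 5.39% and 10.5% at equal depth.

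**Figure D2:**
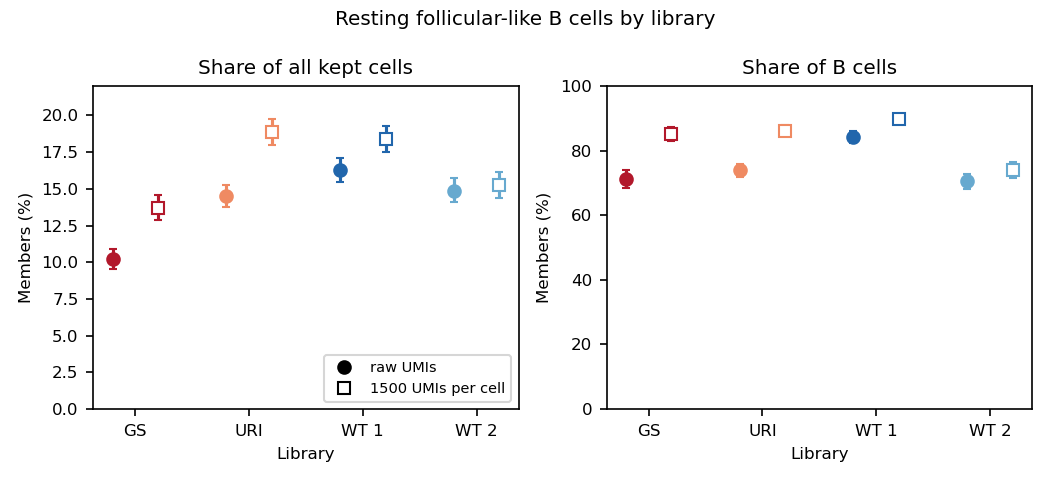
Members as a percentage of all kept cells (left) and of B cells (right) in each library, with exact binomial 95% intervals that cover counting error only; filled circles use raw UMIs and open squares cells thinned to 1500 UMIs. Of kept cells, GS was at 10.2% raw and 13.7% thinned, the lowest library in both; of B cells, GS and URI were at 71.3% and 73.9% raw, between the WT libraries.

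For gene levels, UMIs of members were summed per library and tested by edgeR (quasi-likelihood), with p-values adjusted by Benjamini and Hochberg's method. The test found 0 of 10178 genes (0%) at an adjusted p under 0.05 for GS against WT and 0 of 10178 (0%) for URI against WT. At an unadjusted p under 0.05 there were 27 genes for GS (7 higher, 20 lower) and 25 for URI (17 higher, 8 lower), and DESeq2 called 0 and 0. Both comparisons use the same WT libraries, whose difference is the measure of spread, with 1 residual degree of freedom, and the single GS and URI libraries are assumed to vary like WT. Without the filter on low counts edgeR called 4 genes for GS (Jchain, Igkv12-89, Cpne4 and Igha) and 11 for URI (Rag1, Jchain, Ngp, Ltf, Igha, Hspa1b, Hspa1a, Kdm5d, Eif2s3y, Uty and Ddx3y), each of which the filtered test also held. Gene groups are therefore described by how many of their genes lay outside both WT libraries. Placement above or below used levels scaled by edgeR's TMM factors (0.974 to 1.01), while the CPM printed are unscaled, so a gene close to a WT library can be placed differently from its printed CPM. Over all 10178 genes, 24.0% lay above and 23.7% below both WT libraries for GS, and 22.2% above and 23.0% below for URI, with median log2 differences of -0.02 and -0.03. These shares are the background for every count of genes above or below given from here on.

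The genes that led members over the other kept cells included the rule's own. Besides Ighd, Fcer2a, Cd79a and Cd79b, which the rule used, the 15 with the largest lowest ratio held Fcmr (at least 3.04 on the log2 scale in each library), the B lineage factor Pax5 (2.98), the inhibitory receptor Cd22 (2.97), the fatty acid receptor Ffar1 (2.96), the B cell scaffold Bank1 (2.94), the class II transactivator Ciita (2.94), the sulfotransferase Chst3 (2.88), the light chain gene Iglc3 (2.88, not separable with certainty from its near-identical copies), Trim7 (2.86), Vpreb3 (2.85) and the early B cell factor Ebf1 (2.84). The cells compared were chosen by their own UMIs, and the other kept cells include B cells that are not members, so these ratios are a description.

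The B cell receptor and its partners were close between libraries apart from the gap between the WT replicates. Cd79a, a signalling chain of the receptor, was at 3299 CPM in GS and 3133 in URI members, against 3779 and 2433 in WT, and its partner Cd79b was at 2069.6 and 2305, against 2503 and 1292. Cd22, which damps receptor signals, was at 803 and 845 CPM, against 782 and 551. GS and URI members lay above both WT libraries for Cd22 (log2 0.24, SE 0.42, for GS and 0.32, SE 0.42, for URI; neither called). Of 12 receptor and coreceptor genes, 5 lay above and 1 below both WT libraries in GS members, and 1 above and 1 below in URI members, with medians of 0.15 and -0.02. Over all genes tested, 24.0% lay above and 23.7% below for GS, and 22.2% and 23.0% for URI.

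Kinases and adaptors carry the receptor signal into the cell. In GS members, of 17 such genes 7 lay above both WT libraries (among them Btk, Blnk, Plcg2, Bank1, Malt1 and Ptpn6) and 2 below (Syk and Blk), with a median of 0.06. The shares over all genes tested were 24.0% above and 23.7% below, and none of the 17 was called. Bank1 was at 917 CPM in GS and 699 in URI members, against 865 and 525 in WT, and the phosphatase Ptpn6 was at 922 and 632, against 881 and 495. For both, GS was the highest library and WT replicate 2 the lowest, and the log2 differences for GS were 0.38 (SE 0.44) and 0.40 (SE 0.45). The kinase Syk was at 2064 CPM in GS members, against 2273 and 2510.3 in WT, with URI members at 2389 between them. In URI members 2 of the 17 lay above and 3 below, with a median of -0.05.

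Lineage transcription factors hold the B cell programme. Pax5, which holds B cell identity, was at 1603 CPM in GS and 1428 in URI members, against 1550.3 and 1398 in WT. Ebf1 was at 545 and 611 CPM, against 542 and 641, and Ets1 at 2946 and 3053, against 3161 and 2815. The libraries span a narrow range for all 3 genes. Of 21 factors, 6 lay above and 3 below both WT libraries in GS members and 7 above and 4 below in URI members, and the list's summed level was 14454 and 14438 CPM, against 14344 and 13563.

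Genes for homing and recirculation gave Klf2, a factor that keeps lymphocytes in circulation, at 3734 CPM in GS and 3319 in URI members, against 3331 and 4366 in WT. GS members lay between the WT replicates, and URI members were the lowest library by a small margin. Cxcr5, the receptor that guides B cells into follicles, was at 624 and 438 CPM, against 659.5 and 551, and Ccr7, which guides cells toward T cell zones, at 697 and 546, against 662 and 934. URI was the lowest library for both chemokine receptors (log2 -0.49, SE 0.41, and -0.58, SE 0.44; neither called). Of 20 genes, 3 lay above and 4 below both WT libraries in GS members and 4 above and 7 below in URI members.

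MHC class II genes serve the display of antigen to CD4 T cells. Cd74, which chaperones class II chains, stood at 21823 CPM in GS and 19570.5 in URI members, against 20891 and 21667 in WT, and H2-Aa, an alpha chain, at 6216 and 5771, against 6592 and 4413. Of 12 genes, 4 lay above and 0 below both WT libraries in GS members, and 2 above and 5 below in URI members, with medians of 0.00 and -0.06. At 1500 UMIs a cell, the median member spent 70 UMIs on this list in the GS library and 64 in the URI library, against 67 and 68 in the WT libraries, and the Cd83-high cells 74 and 71, against 65 and 67.

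Survival receptors and Toll-like receptors carry signals other than antigen. Tnfrsf13c, the BAFF receptor that keeps resting B cells alive, was at 357 and 309.5 CPM in GS and URI members, against 348 and 393 in WT. Of 12 survival genes tested, 2 lay above and 2 below both WT libraries in GS members and 2 above and 5 below in URI members. Of 12 Toll-like receptor genes, 2 lay above and 4 below in GS members and 2 above and 3 below in URI members. Cd180, a Toll-like homologue of B cells, was above both WT libraries in each, at 382 and 388 CPM, against 347 and 365. Of 8 costimulation genes tested, 1 lay above and 1 below for GS and 0 above and 3 below for URI.

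Ighd is part of the rule, so its share of heavy chain transcripts is a description. Ighd took 31.2% of Ighd and Ighm UMIs in GS members and 27.4% in URI members, against 30.1% and 22.4% in WT members. Members with at least 10 UMIs of switched heavy chains numbered 5 in the GS library and 1 in the URI library, against 4 and 1 in WT. Igha, the IgA heavy chain, was at 35.4 and 14.9 CPM in GS and URI members, against 758 and 36.2 in WT. In WT replicate 1, 3020 of 3120 Igha UMIs lay in 4 cells, and without them its level was 24.5 CPM, between the GS level of 13.3 and the WT replicate 2 level of 36.2 on the same count; Jchain was then at 1.96 CPM there in place of 107. A UMI of Igha was found in 4.74%, 5.38%, 5.14% and 7.30% of members and in 6.47%, 8.19%, 5.67% and 14.0% of T cells; at equal depth the shares were 1.52%, 2.04%, 2.96% and 4.75% of members and 1.94%, 2.15%, 2.79% and 5.75% of T cells.

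Light chains were mostly kappa. A member with at least 3 light chain constant UMIs was counted as lambda with at least 80% of them from Iglc genes and as kappa with at most 20%. Lambda cells were 4.17% of GS and 5.49% of URI members, against 5.11% and 4.30% of WT members, and kappa cells 78.0% and 76.7%, against 80.4% and 69.8%. The other 17.8% and 17.9%, against 14.5% and 25.9%, held both kinds between these limits, in cells with medians of 28 and 28, against 27 and 8, light chain UMIs. Exact 95% intervals of the lambda shares overlapped in all libraries, from 2.89% to 5.81% in GS to 3.13% to 5.75% in WT replicate 2. With at least 10 UMIs the lambda shares were 3.51% and 4.26%, against 3.62% and 1.23%. At that limit the interval of WT replicate 2 (0.400% to 2.84%) lay below that of URI (3.14% to 5.62%). Iglc1, Iglc2 and Iglc3 have near-identical copies, so the split between them is uncertain and they were summed.

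Heat shock chaperones, which refold proteins damaged by heat and other stress and hold signalling proteins in shape, were low in the URI library. Members of the URI library lay below both WT libraries for 12 of 12 genes, against 23.0% of all genes tested, with a median log2 difference of -0.53. In GS members 4 of the 12 lay above and 1 below. Hspa1b (ENSMUSG00000090877, mm10 chromosome 17, 34956436 to 34959238, minus strand), an inducible Hsp70, was at 873 CPM in GS and 255 in URI members, against 809 and 1453 in WT. Its neighbour Hspa1a (34969190 to 34972156, minus strand), a near-identical copy whose probes may not separate the pair, was at 487 and 132 CPM, against 414 and 864. URI was the lowest library by a wide margin for both genes and did not overlap WT, while GS lay inside the WT range. The log2 differences of URI from WT were -2.18 (SE 0.53) and -2.31 (SE 0.56), with an adjusted p of 1.00 for each by edgeR with the filter and 0.0339 and 0.00818 without it. They were -1.67 and -1.65 without WT replicate 2 and -2.56 and -2.76 without WT replicate 1.

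The promoters of this pair show how alike they are and where a heat shock element half-site pair lies. From RefSeq promoters (GRCm38.p6, 250 bases before to 50 after the start site, minus strand, printed 5′ to 3′), chr17:34959189-34959488 for Hspa1b and chr17:34972107-34972406 for Hspa1a, with GAANNTTC matches in capitals:
Hspa1b: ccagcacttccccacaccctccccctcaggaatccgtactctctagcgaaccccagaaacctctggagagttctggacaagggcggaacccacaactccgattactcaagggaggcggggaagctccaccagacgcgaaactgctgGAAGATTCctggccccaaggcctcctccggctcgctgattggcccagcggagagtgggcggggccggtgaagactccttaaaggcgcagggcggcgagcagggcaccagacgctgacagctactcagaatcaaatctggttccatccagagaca
Hspa1a: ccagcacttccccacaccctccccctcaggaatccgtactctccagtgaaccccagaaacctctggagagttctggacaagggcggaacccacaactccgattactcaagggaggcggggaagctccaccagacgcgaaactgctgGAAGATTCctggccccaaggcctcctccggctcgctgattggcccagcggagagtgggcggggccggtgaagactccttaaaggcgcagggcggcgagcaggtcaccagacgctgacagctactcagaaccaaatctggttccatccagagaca
The stretches were identical at 296 of 300 bases (98.7%). Each held 1 match of GAANNTTC, a letter pattern of the element bound by heat shock factor 1, starting 104 bases before the start site, and 0 of TTCNNGAA. Both patterns read the same on both strands. GAANNTTC occurred in 2582 of 32851 RefSeq mouse promoters of the same length (7.86%), and TTCNNGAA in 2799 (8.52%). Of the 12 heat shock genes, 9 matched the promoter table by symbol, and 8 of them held GAANNTTC in at least 1 listed promoter (Bag3, Dnaja1, Hspa1a, Hspa1b, Hspb1, Hspd1, Hspe1 and Hsph1), which is 9 of 14 promoters, while 3 of the 9 genes held TTCNNGAA. A match is a string of letters, not a site shown to be bound.

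Other chaperones had the same order for URI. Hsph1, an Hsp110 that helps Hsp70 exchange nucleotide, was at 186 CPM in GS and 66.3 in URI members, against 107 and 202 in WT (log2 for URI -1.26, SE 0.48). Dnajb1, an Hsp40 cochaperone, was at 425 and 255 CPM, against 329 and 429, and the constitutive Hspa8 at 634 and 441, against 697 and 515. In each of these the URI library was the lowest, and none was called. Hspb1 and Bag3 were under 10 CPM in every library.

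**Figure D3:**
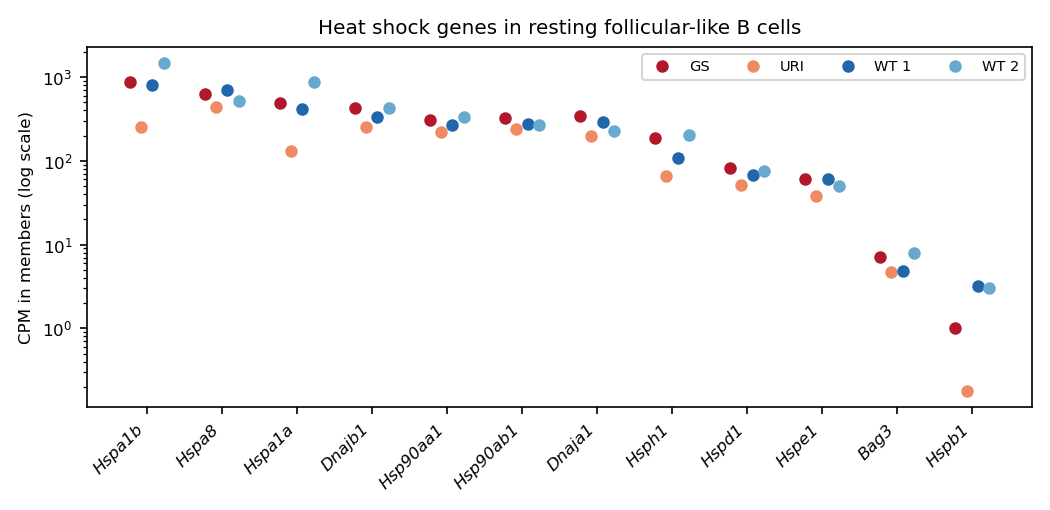
Level of the 12 heat shock genes in resting follicular-like B cells (CPM, log scale), 1 point per library (GS, URI, WT 1, WT 2), genes ordered by mean level. The URI point is the lowest of the 4 for each gene; for Hspa1b it is at 255 CPM, against 809 and 1453 in WT.

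The difference lay in a minority of cells with many heat shock UMIs as well as in the share with none. Members with at least 10 UMIs of Hspa1a and Hspa1b together were 15.2% in the GS library and 4.47% in the URI library, against 11.6% and 15.4% in WT, and members with 0 were 50.9% and 79.5%, against 57.6% and 67.4%, although URI members were the deepest. At 1500 UMIs a cell the median member held 4 heat shock UMIs in GS and 2 in URI, against 4 and 3 in WT, and the upper decile was 11 and 7, against 11 and 21. WT replicate 2 thus had a low median beside the widest upper tail. The URI library was low outside the members too. Other kept cells held Hspa1b at 631 CPM (GS) and 335 (URI), against 447 and 661 (WT), and free RNA held 815 and 354, against 538 and 894.

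Immediate early genes, induced within minutes of a stimulus, split the WT libraries. All 25 were higher in WT replicate 2 than in WT replicate 1, by a median of 1.24 on the log2 scale, and summed to 21246 CPM in GS and 22569 in URI members, against 16071 and 34564 in WT. GS and URI members lay between the WT replicates for most of the list: 2 lay above and 4 below for GS, and 1 above and 2 below for URI. Nr4a1, a reporter of receptor signals, was at 1385 and 1148 CPM, against 781 and 2722, and Jund at 3685 and 4298, against 2863 and 7529.8. At 1500 UMIs a cell, the median member held 29 and 30 UMIs of the list, against 21 and 45. The Cd83-high cells held close to the same, 31 and 31.5 against 23 and 43, and other kept cells summed to 21310.5 and 22633 CPM, against 15018 and 36070.3.

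NF-kB targets and regulators had the same WT gap, a median of 0.72 higher in WT replicate 2, with 15 of 19 genes higher there. Nfkbia, the inhibitor that NF-kB itself induces, was at 1113 and 1375 CPM in GS and URI members, against 824 and 2059 in WT, and the subunit Rel at 694 and 685, against 461 and 1022. Both lay between the WT replicates. In GS members 2 genes lay above and 6 below both WT libraries, and in URI members 1 above and 7 below, one of which was Cd83, which the rule caps. At 1500 UMIs a cell the list took a median of 8 and 8 UMIs in members, against 7 and 11, and 11 and 13, against 10 and 14, in Cd83-high cells; Cd83 is itself on the list and in the rule, so nothing is read from that difference.

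**Figure D4:**
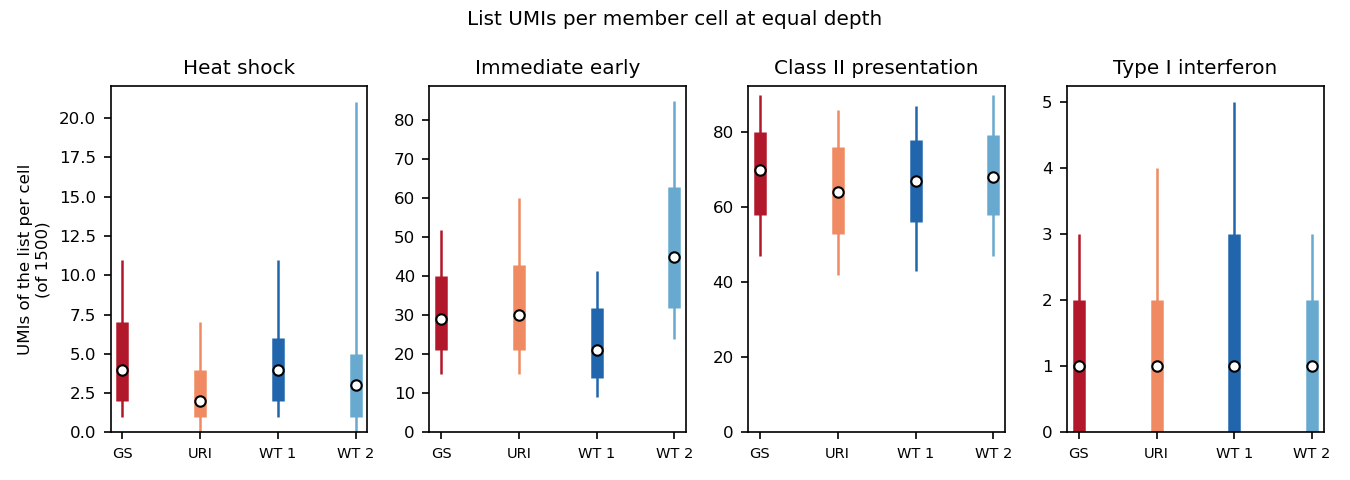
UMIs per member cell spent on 4 gene lists after thinning to 1500 UMIs, by library. Members here are the cells that met the rule after thinning. Open circles are medians, thick bars the interquartile range and thin lines the lower to upper decile. Medians of the heat shock list are 4 in GS and 2 in URI, against 4 and 3 in WT, and those of the immediate early list 29 and 30, against 21 and 45.

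Type I interferon genes were low and mixed. Of 22 tested, 3 lay above and 11 below both WT libraries in GS members, against backgrounds of 24.0% and 23.7%, with a median of -0.24, and 5 above and 5 below in URI members, with a median of -0.06. The antiviral gene Ifit3 was at 11.6 CPM in GS and 26.6 in URI members, against 23.1 and 13.0 in WT. GS was the lowest library and URI the highest (log2 -0.68, SE 0.56, for GS), and the gene was not called. The list summed to 1078 CPM in GS and 1138 in URI, against 1346 and 928 in WT, so the GS sum lay between the WT sums while 11 single genes lay below both. At 1500 UMIs, members with at least 5 interferon UMIs were 5.97% and 7.69%, against 10.8% and 4.85%, the widest gap being between the WT replicates.

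Markers of other B cell states were measured as lists of their own. The marginal zone list summed to 751 and 654 CPM in GS and URI members, against 689.9 and 665 in WT. The B-1 list summed to 599 and 597 CPM, against 614 and 691, and the germinal centre list to 276 and 246, against 262 and 299. Much of these sums was 1 gene each. Ahnak gave 295 and 283 CPM of the B-1 sum, against 318 and 347, and was higher in other kept cells. Bcl6 gave 166 and 117 CPM of the germinal centre sum, against 156 and 133. The B-1 gene Bhlhe41 was at 61.9 and 65.3 CPM, against 24.3 and 114, a WT gap that the sum hides. Cr2, complement receptor 2, which marginal zone B cells carry most of, had a UMI in 26.3% and 21.8% of GS and URI members, against 22.5% and 9.38% in WT, and in 11.0% and 9.25%, against 13.8% and 7.17%, at equal depth. Cd5, a B-1a marker, had a UMI in 3.62% and 2.58% of members, against 1.81% and 2.61%. Of 9 plasma cell genes tested, 2 lay above and 3 below both WT libraries for GS and 0 above and 6 below for URI, and of 9 memory or atypical B cell genes 4 above and 2 below for GS and 5 above and 1 below for URI. Over all genes tested the shares were 24.0% above and 23.7% below for GS, and 22.2% and 23.0% for URI.

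Rag1 and Cd93 were highest in the URI library. Rag1, the recombinase that rearranges receptor genes in developing lymphocytes, was found in 10 URI members with 65 UMIs, 5 of them with at least 3 UMIs, and in 0 of 802 GS members (a share of up to 0.374%), against 1 member with 1 UMI in WT replicate 1 and 0 of 1109 in WT replicate 2 (up to 0.271%); these limits are on cells with a UMI, not on cells expressing the gene. Of the 10 URI cells, 7 also had Cd93, a marker of immature B cells, 4 had Fcer2a and 0 had Rag2. Vpreb3 was in 6 of the 10, but it is also among the genes that led members over other cells in each library. The median Ighd count of the 10 cells was 6.5 UMIs, against 12 over all URI members. URI members held 1 Rag2 UMI and 0 of Dntt, Vpreb1 and Igll1, which also mark early B cells. Cd93 had a UMI in 3.24% of GS and 7.58% of URI members, against 2.32% and 3.43% of WT members, and in 8.64%, 10.8%, 5.71% and 9.19% of T cells. At equal depth the Cd93 shares were 1.19% and 2.93% of members, against 0.835% and 2.74%. T cells were then at 2.47%, 3.38%, 1.88% and 2.18%, so the URI share was close to those of WT replicate 2 and of T cells. Members with at least 3 Cd93 UMIs numbered 13 in the URI library and 0 in the GS library and both WT libraries. The log2 difference of Rag1 for URI was 6.02 (SE 1.37), not called by edgeR with the filter and called without it. Rag1 and the other genes of this paragraph were chosen after their values were seen. Of 6 transitional genes tested, 0 lay above and 2 below both WT libraries in GS members, and 3 above and 1 below in URI members. The transitional list summed to 860 CPM in GS and 778 in URI members, against 898 and 776 in WT. The URI sum thus lay between the WT sums. Most of each sum was Cd24a, at 648 CPM in GS and 555 in URI members, against 654 and 588 in WT. The sum therefore says little about Rag1 or Cd93.

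Cell cycle transcripts were few. Mki67, a marker of dividing cells, had a UMI in 6 GS members (0.748%) and 8 URI members (0.606%), against 4 (0.290%) and 2 (0.180%) in WT. In T cells the share was 1.79% to 4.87%. At equal depth the member shares were 0.217% and 0.136%, against 0.0759% and 0%. These are too few cells to compare the libraries. Of 14 cell cycle genes tested, 4 lay above and 3 below both WT libraries for GS and 5 above and 2 below for URI. The median member held 1 cell cycle UMI of 1500 in every library. Of 15 quiescence genes, 3 lay above and 5 below both WT libraries for GS and 4 above and 4 below for URI. Btg1, an antiproliferative gene of resting lymphocytes, was at 1042 CPM in GS and 957 in URI members, against 663 and 629 in WT. Both deletion libraries lay above both WT libraries, with log2 differences of 0.66 (SE 0.40) and 0.54 (SE 0.40), not called. In other kept cells both deletion libraries again lay above both WT libraries, at 1004 and 892 CPM, against 642 and 724.

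The deleted genes were measured in these cells, though the deletion lies in hepatocytes and the levels do not check it. Uri1 was at 93.2 CPM in GS and 105 in URI members, against 91.3 and 90.7 in WT, and Glul, which encodes glutamine synthetase, at 77.5 and 72.8, against 57.8 and 78.2. Neither was lower in the library of its deletion than in both WT libraries. Of 13 glutamine and glutamate genes tested, 3 lay above and 2 below both WT libraries for GS and 2 above and 4 below for URI. The transporter Slc38a2 was at 485 and 533 CPM, against 348 and 881, inside the WT range, which was wide. Respiratory chain genes gave 3 above and 4 below of 18 for GS and 2 above and 6 below for URI, and glycolysis genes 1 above and 1 below of 12 for GS and 3 above and 3 below for URI.

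**Figure D5:**
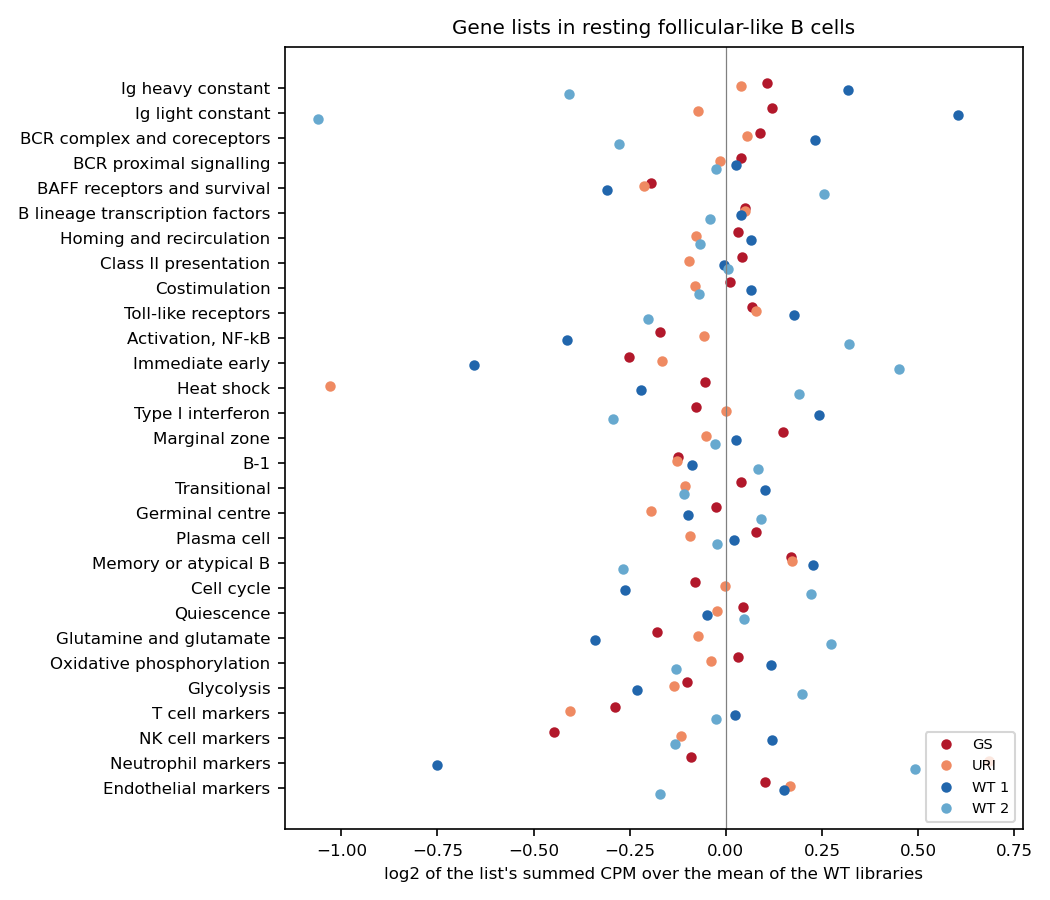
Summed level of each gene list in resting follicular-like B cells, as log2 of the library's summed CPM over the mean of the WT libraries, 1 point per library (GS, URI, WT 1, WT 2), for lists of at least 80 CPM in every library. Heat shock genes in the URI library lie farthest left of both WT points, at 1899.6 CPM against 3328 and 4423, and light chains, neutrophil markers and immediate early genes show wide gaps between the WT points.

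Single genes with the largest gap to the nearer WT library, at a mean of at least 20 CPM, are given as a description. Above both WT libraries, GS members had Dnah8, an axonemal dynein heavy chain, at 50.7 CPM with URI at 14.0, against 19.7 and 11.1 in WT (log2 1.68, SE 0.47), and the zinc finger gene Zfp949 at 44.2 with URI at 18.0, against 17.0 and 17.9 (1.31, SE 0.43). For both, GS stood alone and URI lay with WT. Slamf1, a costimulatory receptor, was at 74.8 and 56.3 CPM, against 45.2 and 45.8, and Rab30, a Golgi GTPase, at 109 and 73.7, against 73.8 and 68.6; Btg1 and Cplane1 completed the list. Below both WT libraries stood Igkv12-89, Ccl3, Supt5, Tyrobp, Fcer1g and Uck2. The kappa V segment Igkv12-89 had its UMIs in 1 GS member and 16 URI members, against 22 and 9 WT members. Uck2, a uridine kinase, was at 21.8 and 24.6 CPM, against 41.3 and 61.0, below both WT libraries in GS (log2 -1.26, SE 0.46) and URI (-1.08, SE 0.44). Cpne4, chosen after its values were seen, was at 25.5 CPM in GS members and listed at 0 in URI members, against 0.729 and 0.381 in WT, with 25.5 CPM in GS Cd83-high cells.

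In URI members the gaps above WT were Ngp, Eif2s3y, Kdm5d, Ddx3y, Ptpn22 and S100a8. Ptpn22, a phosphatase that restrains receptor signals in lymphocytes, was at 229.7 CPM in URI and 173 in GS members, against 123 and 120.5 in WT (log2 for URI 0.88, SE 0.36). Of kept cells that are not members, URI held 472 CPM and GS 469.5, against 457 and 327. The gaps below WT were Hspa1b, Hspa1a, Igha, Jchain, Thy1 and Uck2, with Igha and Jchain high in 4 cells of WT replicate 1. Without cells of at least 10 Igha UMIs, Igha was at 13.1 CPM in URI members, against 24.5 and 36.2 in WT, still below both, while Jchain was at 2.34 CPM, against 1.96 and 6.86, and lay between them.

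Ngp is a neutrophil granule gene and S100a8 a neutrophil marker, and both are given here beside Ngp levels in free RNA and S100a8 shares in T cells. The part of free RNA in the member values was not tested. Ngp was at 70.3 CPM in URI and 3.06 in GS members, against 4.37 and 16.4 in WT members, and in free RNA at 1923 and 183 CPM, against 207 and 327. S100a8 was at 214 and 99.6 CPM, against 77.7 and 120.5, and had a UMI in 34.5% of URI and 23.6% of GS members, against 16.4% and 19.8% of WT members, and in 42.8%, 32.2%, 20.5% and 25.5% of T cells in the same order. At equal depth the shares were 17.1% of URI and 12.3% of GS members, against 8.95% and 14.3% of WT members, and 17.1%, 11.5%, 8.47% and 13.5% of T cells, so members were close to a cell type that should lack the transcript. Among the other lists of foreign cell types, T cell markers without Cd3e summed to 92.5 and 85.2 CPM, against 115 and 111, NK cell markers to 199 CPM in GS and at most 295 in the other libraries, and monocyte and macrophage markers to 44.2 and 39.5, against 34.7 and 122. In URI members T cell markers lay below both WT libraries for 6 of 6 genes, and in GS members for 4 of 6, against 23.0% and 23.7% of all genes tested. Neutrophil markers lay above both WT libraries for 2 of 4 genes in URI members and for 0 of 4 in GS members. Endothelial markers summed to 409 and 428 CPM, against 424 and 339, nearly all of it Pecam1 (409 and 428, against 423 and 339), which leukocytes carry too, while Stab2, Clec4g and Cdh5 were each under 1 CPM. Hepatocyte, dendritic cell and red cell markers summed to at most 14.8 CPM in any library, and Clec4f, a Kupffer cell marker, and Hba-a1 had 0 UMIs in members.

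Y-linked genes differed between pools without following the groups. The 4 genes summed to 135 CPM in GS and 468 in URI members, against 8.50 and 161 in WT, and to 177 and 427 CPM, against 10.0 and 181, in other kept cells. WT replicate 1 was almost without them. The sex of the mice is not among the labels, and the part of the makeup of the pools in any difference between libraries was not tested.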

How the data were processed

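Single-cell gene expression was measured in 4 libraries of CD45+ mouse liver cells with a 10x fixed-RNA probe kit. The authors deposited raw UMI counts per gene and barcode, made with Cell Ranger 8.0.0 on mm10, per the submitters' processing notes. The tables list 32344 genes, and 59 entries for deprecated probes, which took 0.0504% to 0.0655% of member UMIs, stayed out of sums and tests. Cells were kept at 500 or more UMIs, 250 or more genes and at most 10% mitochondrial UMIs. Between 93.9% and 95.6% of the UMIs of a library lay in kept cells. Doublets were scored with Scrublet in scanpy 1.11.5 and left in, with their removal as an alternative. Its automatic threshold marked 0% of WT replicate 1, so the median threshold of the other libraries (0.193) was used there, a choice made after seeing the data. Free RNA was read from barcodes of fewer than 100 UMIs.

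Member UMIs were summed per library and tested with edgeR 4.0.16 (quasi-likelihood, TMM, filter on low counts, all 4 libraries in 1 fit, threshold 0.05 on the adjusted p), with DESeq2 1.42.0 as an alternative. The WT libraries leave 1 residual degree of freedom. Nothing says that libraries of a group came from separate experiments, so p-values measure the spread between these libraries, which may be technical. Exact intervals (Clopper-Pearson, 95%) and the floor of 3 counts cover counting error only. Coordinates are from GENCODE vM21 (mm10), and promoters from RefSeq (GRCm38.p6).

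The members and gene lists were chosen with earlier results of these data known. Genes were named by list (the highest by mean level) and by the largest gap to the nearer WT library at 20 CPM or more. Uri1, Glul, Rag1, Ltf, Cpne4, Hsph1, Cxcr5, Ifit3, Cd5 and Mki67 were chosen after their values were seen. Results of some listed genes are not reported here.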

Additional observations from a re-analysis of the deposited data

How the results depend on the processing

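No paired analysis was possible because the groups share only replicate number 1. Over 24 gene results and 144 alternatives with a test, 135 kept their direction and their side of the threshold, 0 reversed, and 9 passed it without the filter on low counts, where edgeR called 4 genes for GS and 11 for URI. Without either WT library no residual degree of freedom is left, so calls have no value there, and the choice of genes outside both WT libraries fixes their direction. As a share of kept cells, members were 11.1% (GS), 15.7% (URI) and 16.2% (WT replicate 2) at 1000 or more UMIs. The stricter rule (4 or more Ighd and Fcer2a UMIs, Cd83 at 0) gave 6.61% (GS), 9.62% (URI), 11.8% and 7.59% (WT replicates 1 and 2) of kept cells and 46.1%, 49.0%, 61.1% and 36.0% of B cells. Thinned cells gave 13.7%, 18.9% and, in WT replicate 1, 18.4% of kept cells, and 85.2%, 86.2%, 89.9% and 73.9% of B cells. Of kept cells, the GS share was 0.816 of the WT mean when thinned and the URI share 0.992 under the stricter rule and 1.12 when thinned; of B cells GS was at 1.04 when thinned. Leaving out 1 WT library gave 0.628 to 0.687 (GS) and 0.892 to 0.975 (URI) of kept cells, and 0.846 to 1.01 (GS) and 0.877 to 1.05 (URI) of B cells. With 10 or more light chain UMIs, lambda shares were 4.26% (URI), 3.62% and 1.23% (WT replicates 1 and 2). The causes of these shifts were not tested. WT replicate 2 limits depth, with a median of 2164 UMIs a member.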
